A study of Rattus norvegicus with 6 samples.

Results

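The genes of calcium cycling in the cardiac myocyte were compared between the myocardium of 3 sham rats and that of 3 rats subjected to myocardial ischemia and reperfusion (I/R). The 10 genes were chosen by name, and their values were taken from the rows with those symbols in the deposited table, which held 28293 genes after rows of the same symbol had been summed. They were the pump gene Atp2a2 with its inhibitors Pln and Sln, the release channel gene Ryr2 with the calcium store gene Casq2, the sarcolemmal genes Cacna1c, Cacnb2 and Slc8a1, the dyad gene Jph2 and the kinase gene Camk2d. A row was found for 9 of the 10, and Pln was not analysed here. All 9 passed the filter, a mean of at least 0.5 FPKM over the 6 rats, where FPKM are fragment counts corrected for gene length and library size.

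All rats were male and are labelled WT. In the I/R group, the left anterior descending coronary artery was tied for 30 min and then released, and the heart was taken after 6 h of reperfusion. The sham titles carry these same 2 times. Strain and age, the region of the heart that was sampled, and whether the sequenced rats had received the PBS vehicle used in the paper's treatment groups are not given in the sources used here. The RNA came from whole tissue, so fewer cells of a type and less RNA per cell cannot be told apart. Nothing says which rats shared an operation day, and the p-values measure the spread between these 6 samples.

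In each heartbeat, calcium enters the myocyte through L-type channels and opens ryanodine receptors in the facing membrane of the sarcoplasmic reticulum (SR), which release the calcium bound to calsequestrin in the SR lumen. Relaxation follows when the SR pump SERCA2a returns calcium to the store and the sodium-calcium exchanger removes the rest from the cell. Reperfusion is known for calcium overload of the myocyte, in which these same proteins take part.

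The libraries of the 2 groups differed in make-up. The 13 mRNAs encoded by mitochondrial DNA took 80.1% to 86.2% of the summed FPKM in the sham rats and 61.8% to 71.5% in the I/R rats. The median gene was 0.29 higher in the I/R rats on the log2 scale. With the values converted to TPM the median gene stood at 0.48, with each sample centred on its median at 0.04, after quantile normalization at -0.02, after rescaling over genes not encoded by mitochondrial DNA at -0.46 and after centring on cardiomyocyte markers at -2.11. All 9 cardiomyocyte markers (Myh6, Actc1, Tnnt2, Tnni3, Tnnc1, Myl2, Myl3, Actn2 and Mybpc3) were higher in the I/R rats with a median log2 fold change of 2.46, and would by construction be level, as a group, after the last of these. Their summed level ran from 3733 to 12118 FPKM in the sham rats, with sham rat 1 at the top, and from 25188 to 36746 FPKM in the I/R rats. The part of these differences in the results that follow was not tested.

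The sequences around the annotated starts of the calcium cycling genes were not of 1 kind. RefSeq windows of 300 bases on rat GRCr8, each spanning a gene's start and mostly upstream of it, were found for 9 of the 10 genes, Sln being the exception. Their GC content ran from 36.3% at Slc8a1 to 79% at Atp2a2, against a median of 51.7% and quartiles of 44.7% and 60.3% over 33469 windows. The next lowest after Slc8a1 was Pln at 45%. Whether each window, that of Slc8a1 included, is a promoter used in the heart was not tested. The GC box, searched as GGGCGG on both strands, occurred 3 times at Atp2a2, Ryr2 and Camk2d and 2 times in 1 of the windows of Cacnb2. None was found at Casq2, Jph2, Slc8a1, Cacna1c or Pln, and 33.1% of all windows held one. The windows of the 3 genes with the highest levels in the I/R rats are shown, since their mRNAs all rose while these sequences differ, with each GC box in capitals. They lie at chr12:39733269-39733568 on the plus strand for Atp2a2, at chr2:192214306-192214605 on the plus strand for Casq2 and at chr3:172477872-172478171 on the minus strand for Jph2.
Atp2a2: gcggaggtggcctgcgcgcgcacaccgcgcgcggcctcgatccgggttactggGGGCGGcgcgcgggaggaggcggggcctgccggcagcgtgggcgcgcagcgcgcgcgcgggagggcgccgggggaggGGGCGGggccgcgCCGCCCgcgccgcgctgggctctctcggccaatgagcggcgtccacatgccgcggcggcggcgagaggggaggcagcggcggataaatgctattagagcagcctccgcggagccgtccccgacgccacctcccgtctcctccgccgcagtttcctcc
Casq2: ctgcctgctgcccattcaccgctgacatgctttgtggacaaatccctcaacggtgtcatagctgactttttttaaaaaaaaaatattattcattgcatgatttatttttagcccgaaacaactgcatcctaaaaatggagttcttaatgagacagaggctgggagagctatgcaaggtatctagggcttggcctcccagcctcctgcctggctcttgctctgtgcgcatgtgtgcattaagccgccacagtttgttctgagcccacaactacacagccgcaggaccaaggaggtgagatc
Jph2: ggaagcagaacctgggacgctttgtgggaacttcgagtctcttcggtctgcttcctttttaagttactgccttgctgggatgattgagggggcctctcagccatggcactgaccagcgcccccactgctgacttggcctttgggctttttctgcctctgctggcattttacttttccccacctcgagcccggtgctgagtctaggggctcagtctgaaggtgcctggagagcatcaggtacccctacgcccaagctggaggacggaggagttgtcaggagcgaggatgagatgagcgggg

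The same windows were searched on both strands for the MCAT element (CATTCC), the E-box (CAGCTG) and the TATA box (TATAAA). MCAT had 1 match, at Cacna1c, and the E-box 1, at Pln, while the TATA box had none. These elements occur in 14.2%, 15.1% and 14.2% of all windows. A match is a run of letters and not a site shown to be used.

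Of the 9 genes measured, 6 rose in the I/R rats and 0 fell at an adjusted p under 0.05, and none was lower at an unadjusted p under 0.05 either. They were Jph2, Atp2a2, Sln, Casq2, Slc8a1 and Cacnb2, with log2 fold changes from 2.53 to 0.93, and in the same 6 every I/R rat was above every sham rat. Of all 10942 genes tested, 25.5% were called higher and 7.36% lower, and 37.2% had every I/R rat above every sham rat. The median log2 fold change was 1.21 over the 9 genes and 0.29 over all genes. The 6 genes stayed called with sham rat 1 left out, while 3 of them, Sln, Casq2 and Cacnb2, were no longer called with sham rat 3 left out. After rescaling over genes not encoded by mitochondrial DNA, 2 were called higher, Atp2a2 and Jph2, and 2 lower, Cacna1c and Camk2d, against 7.25% higher and 26.1% lower of all genes on that scale, so that 2 of 9 lower is near the share of all genes.

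**Figure D1:**
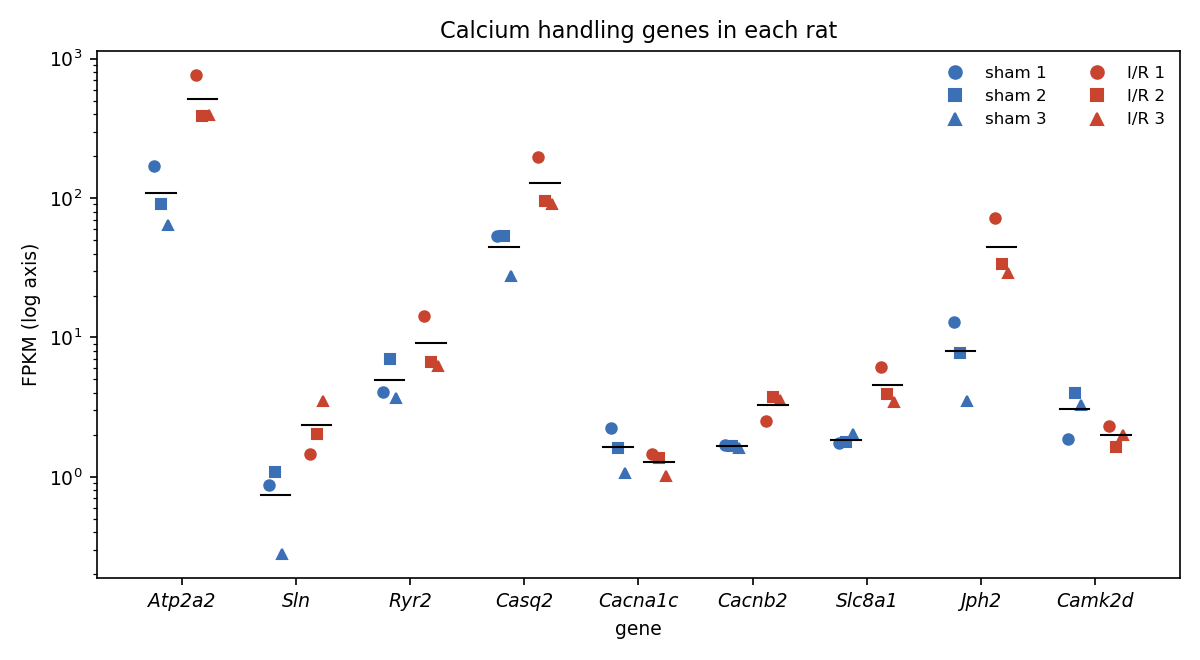
FPKM (log axis) of the 9 measured genes in each rat, with sham rats in blue, I/R rats in red, the symbol shape giving the replicate number and a bar at each group's mean of 3. Every I/R point lies above every sham point for Atp2a2, Sln, Casq2, Cacnb2, Slc8a1 and Jph2, while the groups overlap for Ryr2, Cacna1c and Camk2d.

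Atp2a2, the gene of SERCA2a, had the highest level of the set in both groups. Its FPKM were 169, 91.3 and 64.3 in sham rats 1 to 3 and 768, 385 and 396 in I/R rats 1 to 3. The lowest I/R rat was thus well above the highest sham rat. Sham rats averaged 108 ± 54.6 FPKM and I/R rats 517 ± 218 FPKM (SD, n = 3 each). This was a log2 fold change of 2.29 with a standard error of 0.40 (adjusted p = 0.0043), a 4.90-fold rise, and 1.91% of the genes tested had a larger one. It remained called with each rat left out in turn, between 1.97 and 2.67. After centring on the cardiomyocyte markers the difference was -0.11 (adjusted p = 0.810).

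Sln, the gene of sarcolipin, a small membrane protein that inhibits the pump and in the rodent heart is found mainly in the atria, was among the lowest of the set. Its FPKM were 0.874, 1.08 and 0.280 in sham rats 1 to 3 and 1.46, 2.04 and 3.52 in I/R rats 1 to 3. The values stood in the proportions of the whole numbers 11, 16 and 4 in the sham rats and 16, 24 and 39 in the I/R rats, after allowing for depth, within 0.02 of a step. Where 1 step is 1 fragment, these would be the fragments behind each value, and multiples of them cannot be told apart from the FPKM. The group means were 0.744 ± 0.414 FPKM and 2.34 ± 1.06 FPKM (SD, n = 3 each). Sln had a log2 fold change of 1.60 with a standard error of 0.46 (adjusted p = 0.024). The call was lost without sham rat 3 (1.10, adjusted p = 0.073) and without I/R rat 3 (1.27, adjusted p = 0.079), the rats with the lowest and the highest value. It was also lost after centring on the median (1.35, adjusted p = 0.063) and after rescaling over genes not encoded by mitochondrial DNA (0.90, adjusted p = 0.144).

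Atrial markers were read beside Sln. None of the 6 that passed the filter, of 7 listed, was called, and 1 was higher at an unadjusted p under 0.05. Their summed level was 10.4 to 75.6 FPKM in the sham rats and 18.8 to 147 FPKM in the I/R rats, and Bmp10 was at 0.097 FPKM or less in every rat. Myl7, the atrial light chain of myosin, was at 2.16, 0.905 and 1.20 FPKM in the sham rats and at 2.73, 3.57 and 133 FPKM in the I/R rats, and its highest value was in the I/R rat with the most Sln. Myl4 and Bmp10 were also highest among the I/R rats in rat 3, with Myl4 at 1.90, 2.77 and 3.49 FPKM in I/R rats 1 to 3. In the sham rats Myl4 was at 3.80, 1.01 and 1.03 FPKM. Bmp10 had every I/R rat above every sham rat, at levels too low to be tested. Other atrial markers ran otherwise. Nppa was at 65.3, 8.82 and 5.71 FPKM in the sham rats. In the I/R rats it was at 78.4, 9.81 and 6.69 FPKM, with I/R rat 3 the lowest of its group. Kcnj3 and Kcnj5 were highest among the I/R rats in rat 1, at 2.14 and 1.42 FPKM, and Gja5 in rat 2, at 1.70 FPKM. In I/R rats 1 and 2, Sln was still above every sham rat. The part of atrial tissue in the Sln result was not tested.

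Ryr2, the gene of the cardiac ryanodine receptor, did not pass the threshold. Its FPKM were 4.07, 7.0 and 3.68 in the sham rats and 14.3, 6.64 and 6.22 in the I/R rats. I/R rat 1 stood apart at the top, and sham rat 2 was above the other two I/R rats. Its log2 fold change of 0.82 had a 95% interval of 0.01 to 1.63 (adjusted p = 0.109), and after rescaling over genes not encoded by mitochondrial DNA it was 0.05.

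Casq2, the gene of cardiac calsequestrin, rose. Its FPKM were 53.4, 53.4 and 27.5 in the sham rats and 198, 94.7 and 90.5 in the I/R rats, with no overlap. The means were 44.8 ± 15.0 FPKM (SD, n = 3) and 128 ± 60.9 FPKM (SD, n = 3). Casq2 had a log2 fold change of 1.48 with a standard error of 0.37 (adjusted p = 0.016), and 8.94% of genes had a larger one. Without sham rat 3 it was 1.16 (adjusted p = 0.060), and after quantile normalization 0.51 (adjusted p = 0.236).

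The genes of entry and exchange at the sarcolemma moved unequally. Slc8a1, the gene of the sodium-calcium exchanger NCX1, was at 1.74, 1.78 and 2.02 FPKM in the sham rats and at 6.14, 3.96 and 3.47 FPKM in the I/R rats. The sham rats were close together, with an SD of 0.152 FPKM, and every I/R rat was above them. The exchanger gene thus had a log2 fold change of 1.21 with a standard error of 0.26 (adjusted p = 0.0082), and it stayed called with each rat left out. It was 0.45 after rescaling over genes not encoded by mitochondrial DNA (adjusted p = 0.259).

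Cacna1c, the gene of the pore of the L-type channel Cav1.2, was at 2.25, 1.61 and 1.06 FPKM in the sham rats and at 1.46, 1.36 and 1.01 FPKM in the I/R rats, which overlapped. Its log2 fold change was -0.29 with a 95% interval of -0.98 to 0.39 (adjusted p = 0.481). Cacnb2, the gene of the beta subunit that carries the pore to the membrane, was at 1.69, 1.66 and 1.61 FPKM in the sham rats and at 2.53, 3.76 and 3.57 FPKM in the I/R rats. Here the order of the I/R rats differed from that of the other genes that rose apart from Sln, with I/R rat 1 the lowest. For Cacnb2 the log2 fold change was 0.93 with a standard error of 0.23 (adjusted p = 0.014). It sat near the threshold without sham rat 3 (adjusted p = 0.055), I/R rat 2 (0.054) or I/R rat 3 (0.051), which ended the call, as did centring on the median (0.063).

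Jph2, the gene of junctophilin-2, which ties the SR to the T-tubule, had the largest change of the set. Its FPKM were 13.0, 7.74 and 3.47 in the sham rats and 71.7, 33.4 and 29.0 in the I/R rats. The lowest I/R rat was above the highest sham rat, and the group means were 8.06 ± 4.75 FPKM and 44.7 ± 23.5 FPKM (SD, n = 3 each). The log2 fold change was 2.53 with a standard error of 0.48 (adjusted p = 0.0056), a 5.76-fold rise, and 1.25% of genes had a larger one. It stayed called with each rat left out, between 2.03 and 2.96, and after every rescaling but centring on the cardiomyocyte markers, where it was 0.13 (adjusted p = 0.824).

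Camk2d, the gene of the delta isoform of calcium/calmodulin-dependent kinase II, which phosphorylates the ryanodine receptor and phospholamban, had the lowest log2 fold change of the set. Its FPKM were 1.87, 3.99 and 3.28 in the sham rats and 2.31, 1.64 and 2.0 in the I/R rats. Sham rats 2 and 3 were above every I/R rat, and sham rat 1 fell among them. This gave a log2 fold change of -0.54 with a 95% interval of -1.20 to 0.12 (adjusted p = 0.188). Without sham rat 1 it was -0.85 (adjusted p = 0.038), after centring on the median -0.79, and after rescaling over genes not encoded by mitochondrial DNA -1.30 (adjusted p = 0.017), each of which made it a call.

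**Figure D2:**
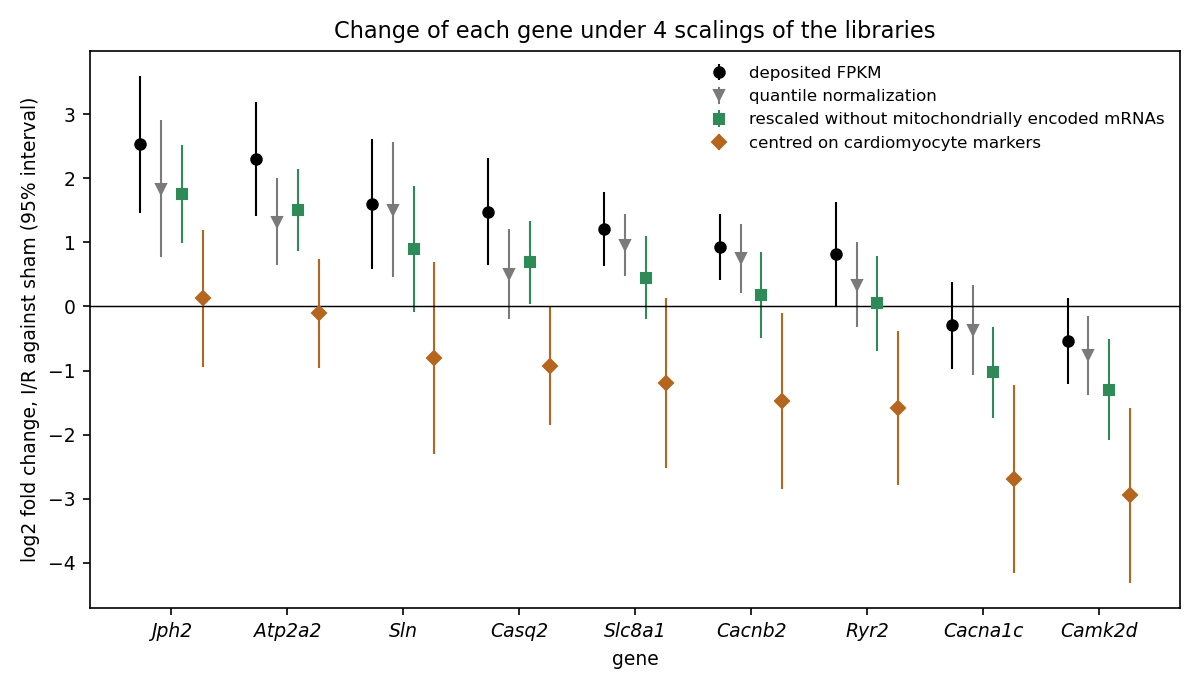
Log2 fold change of I/R against sham with its 95% interval for the 9 genes, from the deposited FPKM (black), after quantile normalization (grey), after rescaling without mitochondrially encoded mRNAs (green) and after centring on 9 cardiomyocyte markers (brown). Cacna1c and Camk2d lie lowest under all 4, and after the last scaling 6 of the 9 change sign, with Jph2 at 0.13 and Camk2d at -2.94.

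Centring on the cardiomyocyte markers of its own library moved each gene of a rat by the same amount, so that the differences between the genes stayed as they were. Atp2a2 had a log2 level relative to the mean of the markers of -1.97 ± 0.24 in the sham rats and -2.08 ± 0.21 in the I/R rats (SD, n = 3 each). For Camk2d this relative level was -7.02 ± 1.42 in the sham rats and -9.96 ± 0.23 in the I/R rats. For Cacna1c it was -7.87 ± 0.48 and -10.57 ± 0.26. On this scale 4 of the 9 genes were called lower, Camk2d, Cacna1c, Ryr2 and Cacnb2, and 0 higher, against 82.5% lower and 0.283% higher of all genes tested, so the share of the 9 that was lower was below that of all genes.

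As FPKM are per length, levels can be ordered between genes. By the sham means, the order was Atp2a2, Casq2, Jph2, Ryr2, Camk2d, Slc8a1, Cacnb2, Cacna1c and Sln. In the sham rats, Atp2a2 and Casq2 were separate from each other and from the rest, while Jph2 and Ryr2, Ryr2 and Camk2d, Camk2d and Slc8a1, Cacnb2 and Cacna1c, and Cacna1c and Sln overlapped as neighbours. By the I/R means, the order was Atp2a2, Casq2, Jph2, Ryr2, Slc8a1, Cacnb2, Sln, Camk2d and Cacna1c. In the I/R rats, Jph2 was separate from Ryr2, with 29.0 FPKM as its lowest value against 14.3 FPKM as the highest of Ryr2. Slc8a1 and Cacnb2, Cacnb2 and Sln, and Sln and Camk2d overlapped. Camk2d thus stood above Slc8a1, Cacnb2 and Sln in the sham means and below all of them in the I/R means, although in I/R rat 1 it was above Sln.

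Ratios between genes within a rat do not change when its whole library is multiplied by a constant. The 0.1 added before taking log2 is an exception, which matters for low genes such as Sln. Quantile normalization is not such a constant and can change them, and the ratios were not recomputed after it. After it, the log2 fold changes were 0.51 for Casq2 and 0.34 for Ryr2, against 1.48 and 0.82 as reported. For Atp2a2 and Slc8a1 they were 1.32 and 0.96, against 2.29 and 1.21. Of 8 ratios compared, 7 did not overlap between the groups, each with an exact permutation p of 0.1, the smallest that 3 rats against 3 allow, and 0.114 after Benjamini-Hochberg adjustment over the 8, so none can pass 0.05. How often ratios of other gene pairs do not overlap was not computed, so 7 of 8 has no background to be read against. Among single genes tested, 37.2% had every I/R rat above every sham rat, and 1418 of 10942 had every I/R rat below. In the I/R rats, several ratios were nearly the same in every rat. Casq2 to Ryr2 was 13.1, 7.63 and 7.48 in the sham rats and 13.8, 14.3 and 14.5 in the I/R rats, and Jph2 to Ryr2 was 3.18, 1.11 and 0.944 in the sham rats and 5.0, 5.03 and 4.66 in the I/R rats. On the log2 scale, the SD of Jph2 to Ryr2 was 0.94 among the sham rats and 0.06 among the I/R rats. Sham rat 1 lay nearest to the I/R rats in both.

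In the deposited FPKM, the store and the dyad gene thus stood higher against the release channel after I/R. The log2 differences were 0.66 for Casq2 to Ryr2 and 1.71 for Jph2 to Ryr2. Against the pump, these genes stood lower, by a log2 difference of -1.47 for Ryr2, -1.08 for Slc8a1 and -2.83 for Camk2d. The ratio of Camk2d to Atp2a2 was 0.0110, 0.0436 and 0.0510 in the sham rats and 0.0030, 0.0043 and 0.0051 in the I/R rats. Within the L-type channel, Cacnb2 to Cacna1c was 0.752, 1.03 and 1.52 in the sham rats and 1.73, 2.76 and 3.54 in the I/R rats, a log2 difference of 1.22. Cacna1c to Ryr2 differed by -1.11. Sln to Atp2a2 overlapped between the groups, with a log2 difference of -0.70 (exact permutation p = 0.4).

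**Figure D3:**
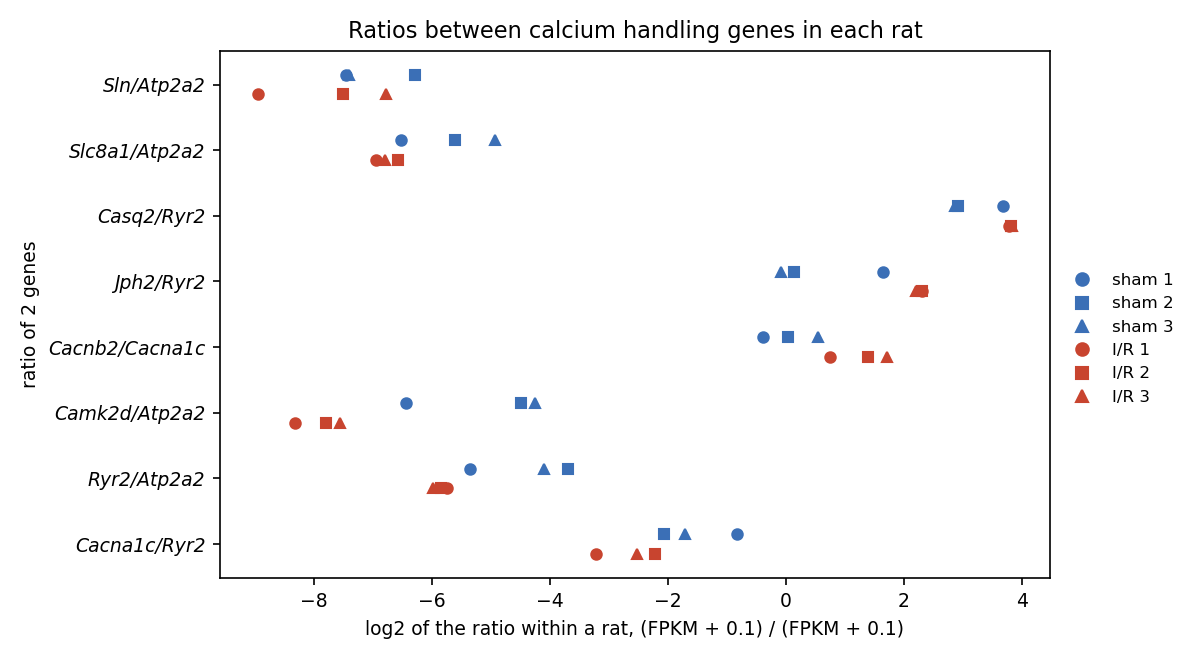
Log2 of 8 ratios between calcium handling genes within each rat, sham in blue and I/R in red, with the symbol shape giving the replicate number. For 7 ratios the groups do not overlap, Sln to Atp2a2 being the exception, and the 3 I/R rats nearly coincide for Casq2 to Ryr2, Jph2 to Ryr2 and Ryr2 to Atp2a2. The share of other gene pairs without overlap was not computed.

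Close relatives of these genes, which other muscles and cells use, were mostly near the floor. Of 18 listed, 15 were in the table and 6 passed the filter. Casq1, the calsequestrin of fast skeletal muscle, was at 3.68, 2.08 and 1.60 FPKM in the sham rats and 8.09, 7.37 and 4.12 FPKM in the I/R rats, with no overlap, and was called higher with a log2 fold change of 1.40 (adjusted p = 0.015). Casq2 nonetheless exceeded it in every rat. The skeletal markers Myh4 and Cacna1s were listed at 0 in every rat, and Myh2 did not exceed 0.042 FPKM. Other skeletal markers were present at low levels, with Mylpf up to 1.89 FPKM, Tnnt3 up to 1.46 FPKM and Tnni2 up to 0.744 FPKM, each highest in a sham rat. The log2 fold changes of Tnnt3 (-1.15, adjusted p = 0.109) and Mylpf (-0.81, adjusted p = 0.168) had the opposite sign to that of Casq1. Casq1 lost its call after quantile normalization, after rescaling over genes not encoded by mitochondrial DNA (0.64, adjusted p = 0.122) and without sham rat 2, sham rat 3 or I/R rat 1, and turned to -1.0 after cardiomyocyte centring. The other 5 relatives tested were not called. Their log2 fold changes were -0.24 for Atp2a3, 0.23 for Slc8a2, -0.37 for Cacnb3, 0.11 for Camk2a and -0.23 for Camk2g.

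Camk2g, a sister kinase of Camk2d, was at 3.15, 3.55 and 2.80 FPKM in the sham rats and 3.68, 2.29 and 2.28 FPKM in the I/R rats, about the level of Camk2d itself. Camk2b stayed at or under 0.140 FPKM, Ryr1 at or under 0.028 FPKM, Slc8a3 at or under 0.020 FPKM and Jph3 at or under 0.054 FPKM. Cacna1d, Cacnb1 and Cacnb4 had at most 0.134, 0.339 and 0.021 FPKM. Jph1 reached 0.551 FPKM in I/R rat 1 and lay between 0.048 and 0.153 FPKM in the other rats, too low to be tested. Atp2a1, Ryr3 and Jph4 were not analysed here.

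Of 63 further genes of cardiac calcium handling, 60 were in the table and 53 passed the filter. In the I/R rats, 23 were higher and 2 lower, and 28 did not pass the threshold, with a median log2 fold change of 0.62, against 25.5% higher and 7.36% lower of all genes. The share called higher depended on the scaling, with 11 higher and 6 lower after rescaling over genes not encoded by mitochondrial DNA (7.25% and 26.1% of all genes). There were 0 higher and 33 lower after centring on the cardiomyocyte markers (0.283% and 82.5% of all genes), where the share lower was below that of all genes and each gene named as higher here but Rcan1 turned in sign.

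Regulators of the pump and proteins of the SR lumen had 6 of 8 tested genes higher, against 25.5% of all genes. Whether any role differs from this share was not tested. Tmem38a, a potassium channel of the SR membrane that accompanies calcium release, went from 25.2, 14.3 and 10.6 FPKM to 111, 65.4 and 61.6 FPKM, a log2 fold change of 2.28 (adjusted p = 0.0034). Ppp1r1a, an inhibitor of protein phosphatase 1, had a log2 fold change of 2.12 and Srl, the gene of sarcalumenin, one of 1.88. Ppp1r1a was not called after quantile normalization (adjusted p = 0.068) or with no filter (adjusted p = 0.053). In the complex around the release channel, 1 of 7 was higher, the calmodulin gene Calm2 with 0.84. Calm2 turned to -0.19 after quantile normalization and lost its call without sham rat 3 or I/R rat 3. It was also not called after rescaling over genes not encoded by mitochondrial DNA (0.06, adjusted p = 0.873). Triadin, which ties calsequestrin to the ryanodine receptor, overlapped between the groups, with Trdn at 8.54, 7.40 and 9.19 FPKM in the sham rats and 9.07, 9.21 and 7.61 FPKM in the I/R rats. Trdn was named after its values were seen, and its log2 fold change was 0.04 (adjusted p = 0.896).

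Around the L-type channel, 2 of 5 genes were higher and 1 lower, against 25.5% and 7.36% of all genes. All 3 encode RGK proteins, small GTPases that inhibit the channel through its beta subunit. Rrad went from 16.1, 17.2 and 30.6 FPKM in the sham rats to 112, 56.9 and 144 FPKM in the I/R rats, a log2 fold change of 2.25 (adjusted p = 0.0040). Rrad was not called after quantile normalization (1.25, adjusted p = 0.065). Gem had a log2 fold change of 1.49 (adjusted p = 0.0084), and 0.76 (adjusted p = 0.149) after rescaling over genes not encoded by mitochondrial DNA. Rem1 fell, from 6.72, 7.72 and 8.09 FPKM to 5.54, 3.64 and 3.71 FPKM, with a log2 fold change of -0.81 (adjusted p = 0.027). Rem1 lost its call after rescaling to TPM and without sham rat 2, sham rat 3, I/R rat 2 or I/R rat 3, at adjusted p-values up to 0.107.

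Among plasma membrane pumps and store-operated entry, 1 of 6 was higher, against 25.5% of all genes. It was the pore gene Orai1 with a log2 fold change of 1.61, while Stim1, the SR calcium sensor that opens it, was not called. Among genes of the dyad and T-tubule, 3 of 6 were higher beside Jph2. They were Cav3, the muscle caveolin, with 2.29, the titin cap gene Tcap with 1.92 and Tecrl with 1.19. Tcap was at 2330 FPKM in sham rat 1 and at 416 and 628 FPKM in sham rats 2 and 3, against at least 2600 FPKM in the I/R rats, and was not called without sham rat 2 (1.40, adjusted p = 0.101), sham rat 3 or I/R rat 3, with no filter, or after median centring, quantile normalization (0.74, adjusted p = 0.181) or rescaling over genes not encoded by mitochondrial DNA. Tecrl was not called after this last rescaling (0.44).

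Of 6 genes of mitochondrial calcium exchange tested, 4 were higher and 1 lower, against 25.5% and 7.36% of all genes. Mcu, the pore of the mitochondrial uniporter, went from 1.31, 1.32 and 1.16 FPKM in the sham rats to 4.98, 3.47 and 3.42 FPKM in the I/R rats, a log2 fold change of 1.55 (adjusted p = 0.0032). Letm1, a cation exchange gene of the inner membrane, had 1.43. Slc8b1, the mitochondrial sodium-calcium exchanger that lets calcium out, was at 1.49, 2.89 and 2.28 FPKM in the sham rats and at 1.09, 0.844 and 0.875 FPKM in the I/R rats. It was named after its values were seen, as the only lower gene of its group, and its log2 fold change was -1.12 (adjusted p = 0.016). The Slc8b1 call was lost without sham rat 2 (-0.92, adjusted p = 0.059) and without sham rat 3 (-1.08, adjusted p = 0.063). Letm1 was not called after rescaling over genes not encoded by mitochondrial DNA (0.67, adjusted p = 0.092). Among kinases, anchors, phosphatases and phosphodiesterases, 6 of 15 were higher, with the calcineurin regulator Rcan1 at 2.41 and the protein kinase A subunit genes Prkaca at 1.81 and Prkar1a at 1.60.

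**Figure D4:**
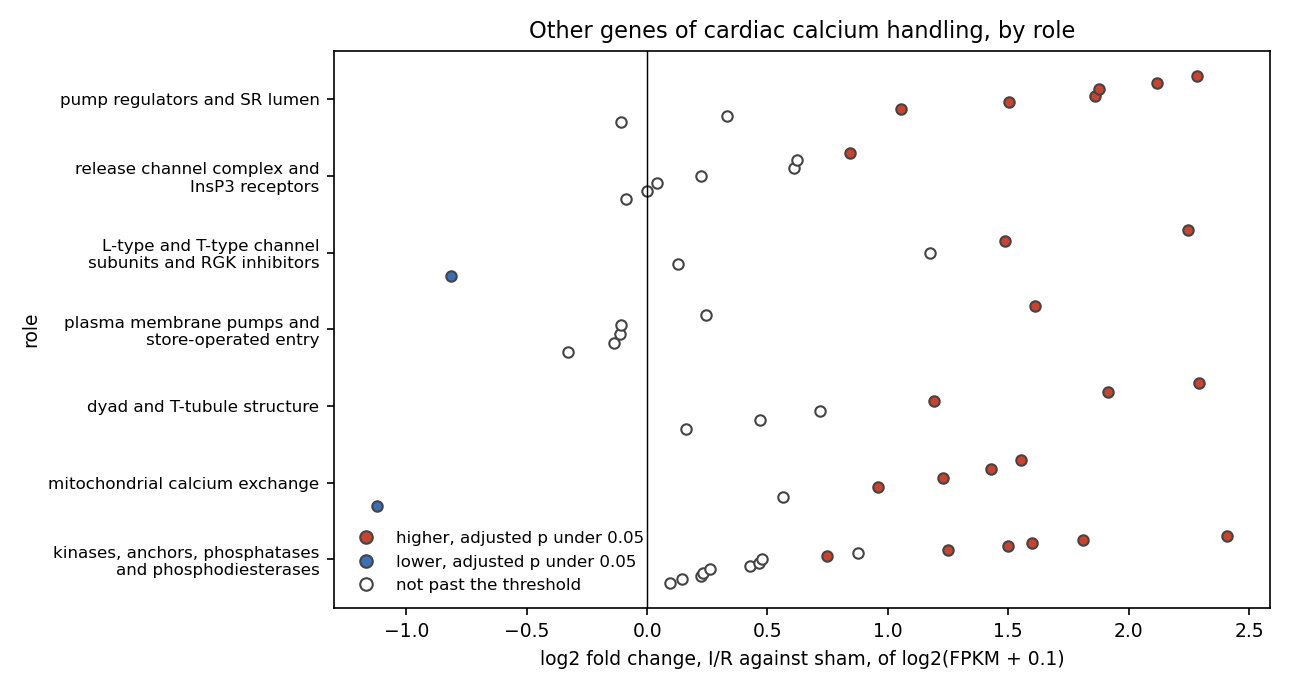
Log2 fold change of log2(FPKM + 0.1), I/R against sham, of 53 further calcium handling genes by role, each point 1 gene, filled red where higher and blue where lower at an adjusted p under 0.05. Among pump regulators and SR lumen genes 6 of 8 points are red, and the only blue points are Rem1 and Slc8b1. Of all genes tested, 25.5% were higher and 7.36% lower. After centring on cardiomyocyte markers none is higher and 33 are lower, a share below the 82.5% of all genes that are lower on that scale.

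The genes whose profile over the 6 rats was most like that of 3 of the set were found among 8583 genes with a symbol and a mean of at least 1 FPKM, by the root mean square difference of the centred log2 values. For Atp2a2 these were Opa3 (0.078), Tufm (0.079) and Tsc22d4 (0.080). Opa3 was at 3.20, 1.49 and 1.13 FPKM in the sham rats and 12.9, 6.69 and 6.69 FPKM in the I/R rats, the same shape at a far lower level. For Ryr2 they were Fbn1 (0.084), Pex7 (0.085) and Mroh1 (0.108), which also had sham rat 2 and I/R rat 1 as the highest of their groups. For Sln the nearest were farther off, with Ch25h (0.305), Cebpd (0.318) and Lpin1 (0.338). With 6 rats these likenesses are a description.

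Markers of other cell types were read in the same libraries, on the deposited FPKM. There 25.5% of all genes tested were called higher and 7.36% lower. Whether the count of any cell type differs from these shares was not tested. Of 7 fibroblast markers 1 was higher, with a summed level of 592 to 785 FPKM in the sham rats and 804 to 862 FPKM in the I/R rats. Of 7 endothelial markers 0 were called, with 1 higher and 1 lower at an unadjusted p under 0.05 and summed levels of 188 to 242 FPKM and 185 to 218 FPKM. Of 5 smooth muscle markers 1 was higher, with summed levels of 74.4 to 266 FPKM and 132 to 329 FPKM, and of 6 neutrophil and monocyte markers tested 3 were higher, with 52.3 to 67.7 FPKM and 78.9 to 144 FPKM. Of the red cell markers 1 was in the table and was not called, with 1061 to 1154 FPKM in the sham rats and 583 to 1672 FPKM in the I/R rats. Ryr2, Cacna1c and Slc8a1 are also expressed in smooth muscle, and the part of these cells in their values was not tested.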

How the data were processed

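Total RNA of 6 rat myocardium samples was sequenced from stranded libraries. The authors deposited 1 table of FPKM values per gene and sample, already divided by gene length and library size. STAR and HTSeq are listed in the submitters' processing notes. Their versions, the genome build and the annotation are not given in the sources used here. Absolute depth is unknown. Low values moved in whole steps or steps of 0.5 (91% of 2552 genes of mean FPKM under 0.05, tolerance 0.02), which gave depths relative to sham rat 1 of 1.18 and 1.14 for sham rats 2 and 3 and 0.873, 0.935 and 0.881 for I/R rats 1 to 3. The FPKM of a sample summed to 731063 to 928941.

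Log2(FPKM + 0.1) of the 10942 genes with a mean of at least 0.5 FPKM was fitted with limma 3.58.1 in R 4.3.3 (eBayes with trend, group only), with Benjamini-Hochberg adjustment over all genes tested and a threshold of 0.05. Rows of the same symbol were summed. Ratios were compared by a two-sided exact permutation test. The code was tested on simulated data. No paired design is stated. Deviations of same-numbered rats, numbered in the labels, correlated at 0.203, 0.117 and 0.118 over genes, and those of differently numbered rats at -0.185 to 0.12. The replicate numbers entered as a block in 1 alternative. The other alternatives were pseudocounts, filters, scalings, no trend, the highest row per symbol and leaving out each rat. Beside all members of the set and their relatives, pathway genes were named where called, at a mean of at least 1 FPKM and without overlap of the groups, up to 3 per role by size of change, and some genes of the lists are not reported singly here. The members and lists were chosen with earlier results of these data known. Genes sharing sequence with a close relative, such as Calm2, are uncertain, as the handling of shared reads is not stated.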

Additional observations from a re-analysis of the deposited data

How the results depend on the processing

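The reported counts were 6 higher and 0 lower among the 9 calcium cycling genes, 23 and 2 among the 53 pathway genes and 2790 and 805 among all genes (77.6% of calls higher). Scaling changed them most. The share of calls that were higher was 87.3% after rescaling to TPM, 56.5% after median centring, 48.0% after quantile normalization, 21.7% after rescaling over genes not mitochondrially encoded, 0.342% after cardiomyocyte centring, and 91.9% with a filter at a mean FPKM of 5. After rescaling over genes not mitochondrially encoded, 2 of the 9 were higher and 2 lower, 11 and 6 in the pathway and 793 and 2857 over all genes. After cardiomyocyte centring, 0 of the 9 were higher and 4 lower, 0 and 33 in the pathway and 31 and 9029 over all genes. Median centring gave 1 of the 9 lower (Camk2d) and 1554 genes lower in all. Quantile normalization gave 13 pathway genes higher, and 1441 higher and 1559 lower over all genes. TPM gave 1 pathway gene and 504 genes lower. With the filter at 5, 4 of the 9 genes and fewer pathway genes were tested, with 3 of the 4 higher, 1 pathway gene lower and 166 genes lower in all. With each rat left out, 3 to 6 of the 9 were higher (3 without sham rat 3) and 0 to 1 lower (Camk2d without sham rat 1), 16 to 22 and 0 to 2 in the pathway (0 without sham rat 2 or sham rat 3, 1 without I/R rat 2 or I/R rat 3), and 1526 to 2567 and 305 to 880 over all genes (305 without sham rat 2, 1526 and 348 without sham rat 3). Under cardiomyocyte centring the log2 fold change turned to -0.11 for Atp2a2, -0.80 for Sln, -1.58 for Ryr2, -0.93 for Casq2, -1.47 for Cacnb2, -1.19 for Slc8a1, -0.12 for Tmem38a, -0.28 for Ppp1r1a, -0.52 for Srl, -1.56 for Calm2, -0.15 for Rrad, -0.92 for Gem, -0.79 for Orai1, -0.11 for Cav3, -0.49 for Tcap, -1.21 for Tecrl, -0.85 for Mcu, -0.97 for Letm1, -0.59 for Prkaca and -0.80 for Prkar1a, and Calm2 was -0.19 under quantile normalization. That centring subtracts a rise by construction, and the cause of the other shifts was not tested. Sln was not called with no filter on low values (adjusted p = 0.081). The replicate block gave 3085 genes higher and 895 lower, 26 and 2 in the pathway and 6 and 0 of the 9, and changed no call of a gene of the set or of a pathway gene named by the rule. The 8 ratios kept their direction under both other pseudocounts and with each rat left out. Sln to Atp2a2 moved from -0.70 to -1.36 with a pseudocount of 1 and to -0.54 with one of 0.01. It was -0.09 without I/R rat 1 and -0.31 without sham rat 2, so its direction rested on single rats. The number of fragments is not known, which limits what can be said of Sln and the low relatives.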

Other observations

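Other gene families related to calcium, picked by symbol after the data were seen, were read with the same fit, in which 25.5% of all genes were higher and 7.36% lower. None of the 6 calpains tested, calcium-activated proteases, was called by limma, with 0 higher and 1 lower at an unadjusted p under 0.05. Capn2, the most abundant, was at 27.1 ± 4.12 FPKM in the sham rats and 18.9 ± 0.89 FPKM in the I/R rats (SD, n = 3 each), a log2 fold change of -0.50 (adjusted p = 0.103). Of 8 annexins, which bind membranes in the presence of calcium, 2 were higher, Anxa6 with a log2 fold change of 1.19 (adjusted p = 0.0077) and Anxa11 with 0.79 (adjusted p = 0.039). This share is near that of all genes, and neither was called after quantile normalization or after rescaling over genes not mitochondrially encoded. Anxa11 was also not called with no filter (adjusted p = 0.057) or after median centring (0.086). Its call was lost with any rat but sham rat 1 left out, at adjusted p-values up to 0.142, while Anxa6 stayed called with each rat left out.

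Of 10 genes with an S100 symbol, 3 were higher and 1 lower. S100a1, an EF-hand protein of the myocyte that binds the pump and the release channel, had a log2 fold change of 1.5 (adjusted p = 0.014), while the neutrophil genes S100a8 and S100a9 had 1.60 and 1.89. S100a1 and S100a8 were not called after median centring, quantile normalization or rescaling over genes not mitochondrially encoded. S100a9 was not called after quantile normalization (1.20, adjusted p = 0.060). Without sham rat 2, S100a1 (adjusted p = 0.068) and S100a8 (0.063) lost their call, and S100a1 also without sham rat 3 (0.056). All higher genes of these families turned in sign after cardiomyocyte centring. The lower one was S100pbp, which encodes a binding partner and not an S100 protein, at 1.49 ± 0.34 FPKM in the sham rats and 0.321 ± 0.14 FPKM in the I/R rats (log2 fold change -1.95, adjusted p = 0.0054). Of 5 genes with an NFAT symbol 1 was lower, Nfatc4, a transcription factor of calcineurin signaling, with -0.76 (adjusted p = 0.034). Its call was lost with the replicate block (0.053), with no filter (0.072) and after rescaling to TPM (0.106). It was also lost with any rat but I/R rat 2 left out, at adjusted p-values up to 0.113. The calcineurin regulator Rcan1 was among the pathway genes that rose.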
